A study of Rattus norvegicus with 11 samples.

Results

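Crybb1, which encodes the lens protein beta-B1 crystallin, and 8 genes that mark microglia were followed across the medial prefrontal cortex of 11 rats. The 9 genes are 9 of 35561 different gene or transcript names on the array. They were chosen by name around Crybb1, with every non-control probe that carries the name, which gave 11 probes: 1 for each gene and a second for Csf1r and Tyrobp. The set was selected on the measured difference of Crybb1 between the groups, since the study lists its probe among those changed on these same arrays. That difference is therefore given as a description only, and tests are kept for the 8 markers and for the relation between genes across rats.

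The rats were 4-month-old males whose strain is not given in the sources used here. The heroin group (6 rats) had licked a spout to receive heroin through a jugular catheter, and the yoked saline group (5 rats) received saline whenever a heroin rat received heroin. All rats then had 14 days without drug, followed by an extinction session in the self-administration chamber in which no drug was given, and were killed directly afterwards. RNA of the dissected cortex, which holds all cell types of the tissue, was labelled with Cy3 and hybridised to 1 single-colour array per rat. The array median signal, the value to which each array was scaled, ran from 42.7 in heroin replicate 6 to 83.2 in saline replicate 6, and 28185 to 33835 probes per array were well above background. Values are signals in array medians, so that 1 is the level of the middle probe of that array. They compare rats for a given probe, and levels are not compared between genes, whose probes bind with different strength.

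Microglia are the resident macrophages of the brain. They depend on signalling through the receptor Csf1r, sense neurons through the fractalkine receptor Cx3cr1 and nucleotides through P2ry12, and clear debris and complement-tagged synapses with the help of C1q, Itgam and the lysosome. Beta and gamma crystallins are known as structural proteins of the lens, and Crybb1 has also been used as a transcript of brain microglia in rodents. In whole tissue, fewer cells of a type and less RNA per cell cannot be told apart.

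The Crybb1 result rests on a single 60-base probe for transcript NM_012936, whose genome position the scanner files leave blank. It is shown because the whole account of Crybb1 depends on it.

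Crybb1 probe: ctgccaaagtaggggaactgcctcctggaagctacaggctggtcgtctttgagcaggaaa

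Promoters were available here for 6 of the 9 genes, and the 4 printed are those of Crybb1, of C1qb and Cd68, whose signals moved together across rats, and of Itgam, for which no such relation was detected. Each is the 250 bases before the annotated start of the gene in RefSeq (build GRCr8), on the gene's own strand. Capitals mark 3 motifs, searched on both strands: GAGGAA, the core bound by the macrophage factor PU.1; TGANTCA, the AP-1 motif of Fos and Jun; and TGCTGA, recognised by the Maf family, which serves macrophages and lens cells alike. Itgam lies on the plus strand and the other 3 genes on the minus strand.

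Crybb1 (chr12:50043757-50044006): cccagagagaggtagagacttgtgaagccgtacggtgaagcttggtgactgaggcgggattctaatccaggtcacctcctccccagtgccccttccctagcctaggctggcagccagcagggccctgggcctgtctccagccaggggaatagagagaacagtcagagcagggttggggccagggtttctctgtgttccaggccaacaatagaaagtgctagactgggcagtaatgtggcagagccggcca
C1qb (chr5:154407828-154408077): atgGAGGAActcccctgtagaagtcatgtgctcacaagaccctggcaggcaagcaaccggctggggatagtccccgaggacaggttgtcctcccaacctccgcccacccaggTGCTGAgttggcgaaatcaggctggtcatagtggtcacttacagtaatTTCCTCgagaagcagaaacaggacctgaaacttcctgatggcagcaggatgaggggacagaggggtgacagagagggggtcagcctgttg
Cd68 (chr10:54882442-54882691): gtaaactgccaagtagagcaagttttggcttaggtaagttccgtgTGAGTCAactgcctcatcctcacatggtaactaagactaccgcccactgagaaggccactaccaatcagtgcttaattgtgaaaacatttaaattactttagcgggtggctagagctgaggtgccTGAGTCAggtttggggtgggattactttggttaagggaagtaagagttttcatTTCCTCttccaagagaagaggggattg
Itgam (chr1:192089342-192089591): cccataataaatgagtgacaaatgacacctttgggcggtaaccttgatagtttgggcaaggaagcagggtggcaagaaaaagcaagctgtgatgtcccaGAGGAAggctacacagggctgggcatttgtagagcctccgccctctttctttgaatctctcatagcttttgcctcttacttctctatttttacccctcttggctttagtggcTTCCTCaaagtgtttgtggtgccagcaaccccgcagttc

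The PU.1 core was present in 4 of the 6 promoters (Cd68, Itgam, Csf1r and C1qb), against 23.3% of the 33469 promoters of the same length. C1qb and Itgam each held it at 2 places, 247 and 90 bases before the start for C1qb and 151 and 39 bases before it for Itgam, and Cd68 held it 27 bases before the start. The AP-1 motif occurred in 1 of the 6, Cd68, at 205 and 80 bases before the start, against 6.34% of all promoters. The Maf motif also occurred in 1, C1qb, against 15.1%. None of the 3 motifs was in the windows of Crybb1 and Cx3cr1. Promoters of Aif1, Tyrobp and P2ry12 were not analysed here.

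The Crybb1 probe was well above background on all 11 arrays, but close to the limit, with a signal on average 1.89 times the lowest signal called well above background on the same array. In the saline rats its signal was 0.718, 0.467, 0.667, 0.486 and 0.574 array medians (replicates 2 to 6). In the heroin rats it was 0.316, 0.473, 0.313, 0.382, 0.546 and 0.354 (replicates 1 to 6). Of the heroin rats, 4 lay below every saline rat, whereas heroin replicates 2 and 5 lay within the saline range, so the groups overlapped.

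The mean Crybb1 signal was 0.397 ± 0.0934 in heroin rats (SD, n = 6) and 0.583 ± 0.110 in saline rats (SD, n = 5), a log2 difference of -0.56 (SE 0.17) or 0.677-fold. By the rule that chose it, this is past the study's limits of at least 1.4-fold with an unadjusted p under 0.02, and 2.72% of all 25555 probes tested met both with limma (0.927% lower and 1.79% higher in heroin). The scaling of the arrays matters to any such value, because the median probe itself was 0.18 higher in heroin on the log2 scale after scaling to array medians, -0.034 after scaling to the 75th percentile and 0.013 after quantile normalization. Relative to the median probe the Crybb1 difference was -0.75. It was -0.78 with scaling to the 75th percentile, -0.41 with quantile normalization and -0.17 with the normexp background correction, in which a constant is added to each signal before logs are taken.

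Each of the numbers 2 to 6 had its heroin and its saline array in the same scan, and the saline array always sat at position 3 and the heroin array at position 4 of the scanned slide, so that array position and group cannot be told apart. Within the 5 shared scans Crybb1 was lower in the heroin rat in 4, by 0.60, 0.58, 0.81 and 0.70 on the log2 scale for numbers 2, 3, 4 and 6. It was 0.17 higher in the heroin rat for number 5.

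**Figure D1:**
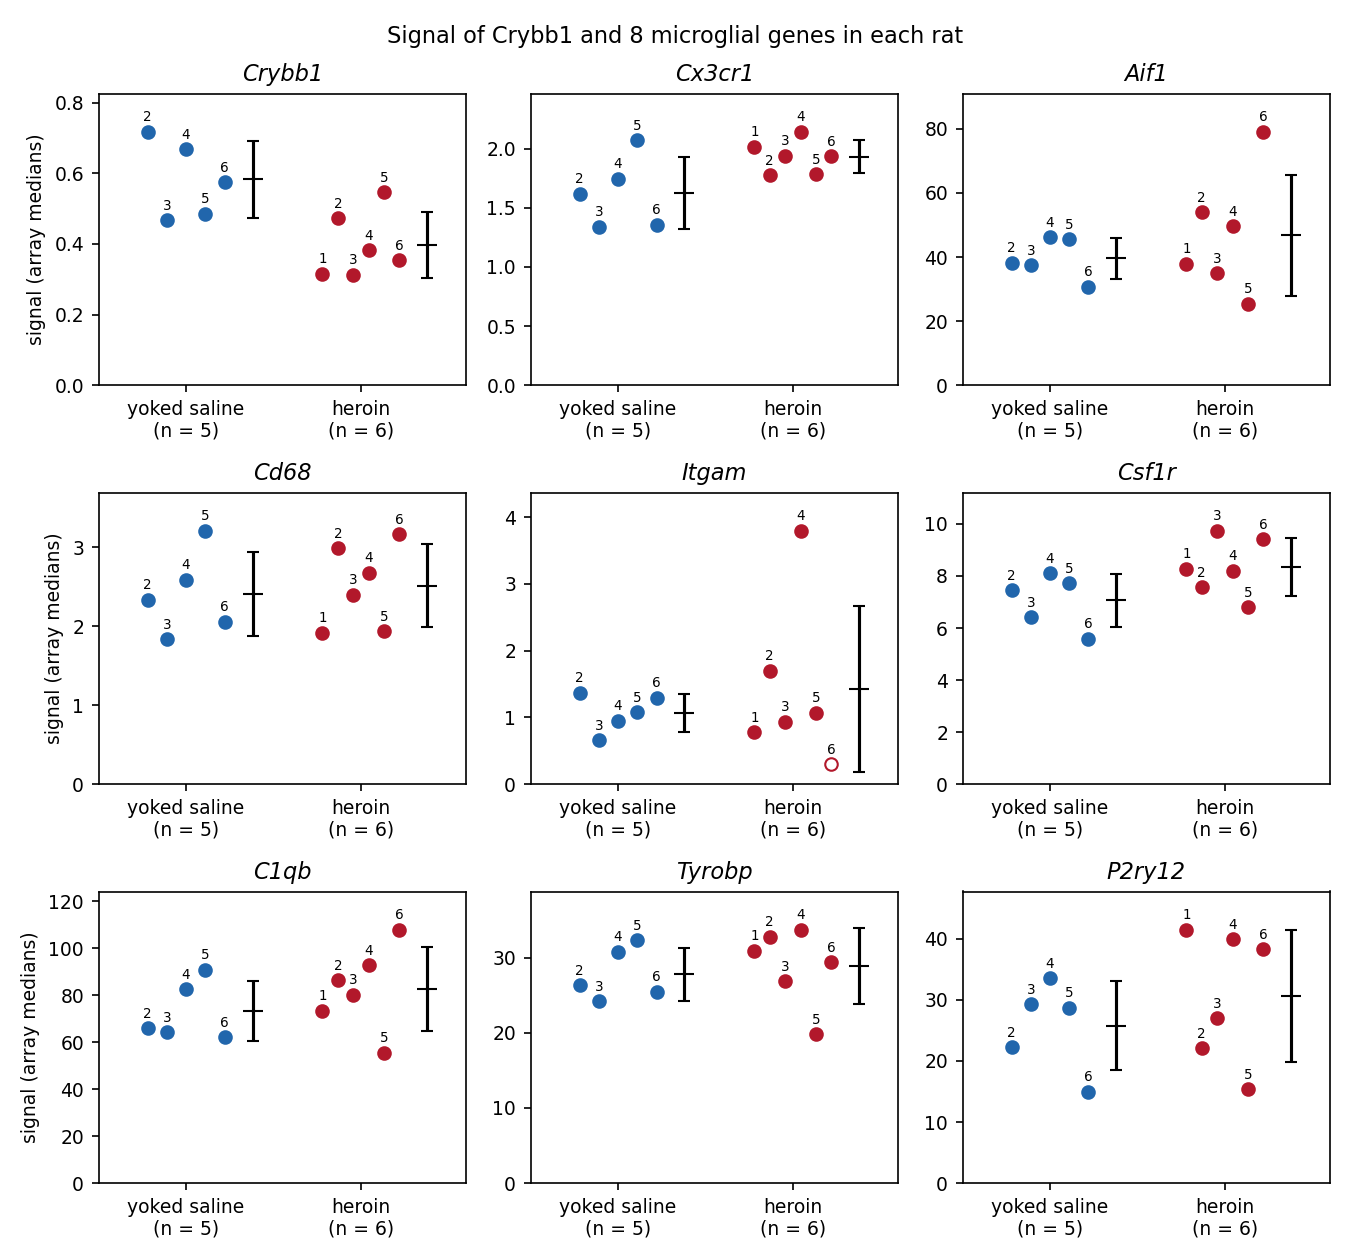
Signal of the main probe of each gene in array medians (vertical axes start at 0) for the 5 yoked saline rats (blue) and the 6 heroin rats (red). Numbers are replicate numbers, bars are the mean ± SD, and the open symbol is an array on which the probe was not well above background. For Crybb1, 4 of 6 heroin rats lie below all saline rats, and for Csf1r 4 of 6 lie above them. The groups overlap for Crybb1 and for all 8 microglial genes.

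The first question for the 8 markers was whether microglial transcripts as a whole differed between the groups. None was past both limits with limma or under any of the 23 alternatives that gave a count (Itgam entering only where it could be tested), against 2.72% of all probes in either direction. Of the 7 markers tested, 7 had higher means in heroin at array-median scaling, with a median log2 difference of 0.16, but only 3 of the 7 exceeded the shift of the median probe. With quantile normalization the median of the 7 was -0.079. No marker separated the groups, against 1.78% of all tested probes whose heroin and saline values did not overlap. The smallest p that an exact permutation of these rats can give is 0.0022.

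Receptors came closest. Cx3cr1, the receptor for the neuronal chemokine fractalkine, had signals of 1.62, 1.34, 1.75, 2.07 and 1.36 array medians in saline replicates 2 to 6 and of 2.02, 1.78, 1.94, 2.14, 1.78 and 1.94 in heroin replicates 1 to 6. The heroin rats were close together and saline replicate 5 was as high as they were. The log2 difference was 0.27 (SE 0.13), with an unadjusted limma p of 0.068, an adjusted p of 0.28 over all tested probes and an exact permutation p of 0.052 (two-sided). Relative to the median probe it was 0.082.

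Csf1r, the receptor for the growth factors on which microglia depend, had signals of 7.46, 6.42, 8.11, 7.71 and 5.60 array medians in saline replicates 2 to 6. In heroin replicates 1 to 6 they were 8.29, 7.57, 9.75, 8.20, 6.79 and 9.41, and 4 heroin rats exceeded all saline rats. The log2 difference of 0.24 (SE 0.14) had an adjusted p of 0.32, and it was 0.010 after quantile normalization. The second Csf1r probe, for accession X61479, was well above background on 7 of the 11 arrays and was not tested.

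P2ry12, the ADP receptor that guides microglial processes, varied more between rats of a group than 94.5% of all probes tested (within-group SD 0.53 on the log2 scale, against 0.27 for the median probe). Its signals were 22.3, 29.3, 33.6, 28.7 and 14.96 array medians in saline replicates 2 to 6 and 41.5, 22.1, 27.0, 39.9, 15.3 and 38.3 in heroin replicates 1 to 6. Of the heroin rats, 3 were above all saline rats, and heroin replicate 5 was nearly as low as the lowest saline rat. The log2 difference was 0.22 (SE 0.27; limma adjusted p = 0.60).

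Itgam, the alpha chain of complement receptor 3, was not well above background in heroin replicate 6 and so was not tested. Its signals were 1.37, 0.656, 0.953, 1.08 and 1.29 array medians in saline replicates 2 to 6. In heroin replicates 1 to 6 they were 0.778, 1.70, 0.938, 3.80, 1.07 and 0.301. The highest and the lowest value were thus both in heroin rats (replicates 4 and 6). Without heroin replicate 4 the log2 difference became -0.32, against 0.05 with all rats, without heroin replicate 2 it was -0.084, and without heroin replicate 6 it was 0.41, so that single rats decided its sign.

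Nor did the phagocytic genes pass the limits. Aif1, the cytoskeletal protein also called Iba1, ranged from 30.8 to 46.3 array medians in saline rats (median 38.3) and from 25.4 to 79.2 in heroin rats (median 43.8). Its lowest and its highest signal were again both in heroin rats, replicates 5 and 6, and the log2 difference of 0.16 (SE 0.24; limma adjusted p = 0.66) became -0.0085 without replicate 6. C1qb, a subunit of the first complement component, was 73.2 ± 12.8 in saline rats (SD, n = 5) and 82.7 ± 17.8 in heroin rats (SD, n = 6). Its signals were 65.9, 64.2, 82.6, 90.9 and 62.2 in saline replicates 2 to 6 and 73.4, 86.5, 80.2, 92.9, 55.5 and 108 in heroin replicates 1 to 6, a log2 difference of 0.16 (SE 0.17; limma adjusted p = 0.54). Heroin replicate 5 was below and replicates 4 and 6 were above all saline rats. Cd68, a glycoprotein of the phagocyte lysosome, differed by 0.064 (SE 0.18; limma adjusted p = 0.82), from 1.84 to 3.21 array medians in saline rats and from 1.92 to 3.17 in heroin rats. Aif1, Cd68 and C1qb each changed sign under quantile normalization (-0.091, -0.079 and -0.091) and with scaling to the 75th percentile.

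Tyrobp, the adaptor through which Trem2 and other receptors signal, had 2 probes that lie 8 bases apart in build rn3 and read opposite strands. The probe for the RefSeq transcript NM_212525 (chr1:85447221-85447280, plus strand) gave 27.8 ± 3.52 array medians in saline rats (SD, n = 5) and 28.9 ± 5.08 in heroin rats (SD, n = 6). Its log2 difference was 0.044 (SE 0.15; limma adjusted p = 0.86), and -0.21 after quantile normalization. The probe for the EST AI102519 (chr1:85447153-85447212, minus strand) gave 0.901 ± 0.287 in saline and 0.739 ± 0.208 in heroin rats, with a log2 difference of -0.26 (SE 0.23; limma adjusted p = 0.47). It is placed on the strand opposite to the Tyrobp transcript. It was kept out of the account of that gene, except where all probes of a gene were averaged.

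For the other probes the files give positions in the same build: C1qb at chr5:155657575-155657634, Cd68 at chr10:56495385-56495444, P2ry12 at chr2:148561016-148561075 and Cx3cr1 at chr8:125053829-125053888, all on the minus strand and 60 bases long. The intervals for Aif1 (chr20:3715789-3716370), Csf1r (chr18:57177463-57178164) and Itgam (chr1:187534913-187535446) on the plus strand span 582, 702 and 534 bases, more than the length of a probe. Gene annotation of that build was not used here, and exons were not assigned.

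**Figure D2:**
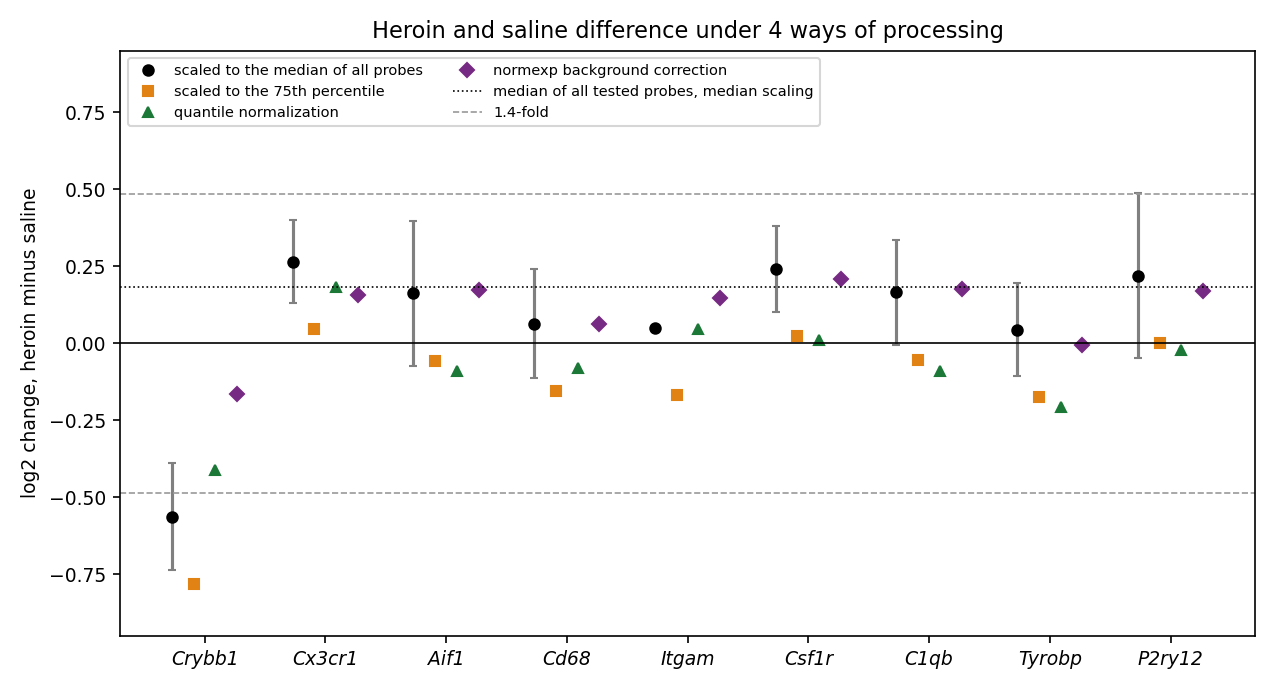
Log2 difference between heroin and saline rats (vertical axis) for the main probe of each gene under 4 ways of processing. Bars are ± 1 SE from limma for array-median scaling (Itgam has none, as it was not tested), the dotted line is the median of all tested probes at that scaling (0.18) and the dashed lines are 1.4-fold. Crybb1, chosen on this difference, is below 0 under all 4, from -0.78 to -0.17. Aif1, Cd68, Itgam, C1qb, Tyrobp and P2ry12 change sign with the processing.

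Correlation between genes across rats was computed on log2 signals after the mean of each group was removed, over 11 rats, so that the group difference of Crybb1 did not enter. The 9 genes give 36 pairs, and p-values are two-sided and exact, from 86400 permutations within groups, and were adjusted over the 36 pairs by the Benjamini-Hochberg method. Because the genes were chosen with earlier results known, these p-values describe how closely the genes moved together in these rats.

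The markers other than Itgam moved together. All 21 pairs among these 7 markers were positive, with a median r of 0.67 (range 0.30 to 0.91). Their median Spearman's rho was 0.55. Each of the 7 was also positively related to most of the array, from 58.5% (Aif1) to 77.6% (Cx3cr1) of all tested probes. Their median r with all tested probes ran from 0.12 (Aif1) to 0.32 (Cx3cr1), and the r between markers is read against that background. After quantile normalization these medians ran from -0.035 (Aif1) to -0.0057 (Csf1r). The closest pairs joined C1qb to Aif1 (r = 0.91, rho = 0.85, exact permutation p = 0.0008, adjusted p = 0.014) and C1qb to Cd68 (r = 0.88, rho = 0.86, exact permutation p = 0.00035, adjusted p = 0.013). The pair of Aif1 and Cd68 followed (r = 0.79, rho = 0.81, adjusted p = 0.038 from the exact permutation). These are 3 pairs at an adjusted p under 0.05, of 13 at an unadjusted p under 0.05. By rho 2 pairs remained under 0.05, C1qb with Aif1 and with Cd68 (both adjusted p = 0.041, exact permutation). Without the 2 rats farthest from the median, r was 0.79 for Aif1 and C1qb (heroin replicates 5 and 6 left out) and 0.80 for Cd68 and C1qb (saline replicate 5 and heroin replicate 6 left out).

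The r of C1qb with Aif1 stood above that of 99.7% of all tested probes with Aif1. The r of C1qb with Cd68 stood above that of 99.9% of those with Cd68. Other pairs stood out less. For Aif1 with Cx3cr1 the r was above that of 54.2% of all tested probes with Cx3cr1. For P2ry12 with Cd68 it was above 59.5% of those with Cd68, and for Tyrobp with Csf1r above 76.3% of those with Csf1r. These were the lowest such values among the 21 pairs. Aif1 was highest and C1qb was highest in heroin replicate 6, and both were lowest in heroin replicate 5. After quantile normalization C1qb had r = 0.87 with Aif1 and r = 0.82 with Cd68, and the 21 pairs were all still positive with a median of 0.41. Of the 36 pairs, 0 then had an adjusted p under 0.05 (3 of the marker pairs at an unadjusted exact permutation p under 0.05).

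No relation of Itgam to the other markers was detected. Its r with the other 7 ran from -0.28 (Csf1r) to 0.25 (Tyrobp), 4 of them negative, and 0 of the 7 had an unadjusted p under 0.05 by the exact permutation. The values rest largely on heroin replicates 4 and 6, its highest and lowest rats: without them its r with P2ry12 was -0.59 and with C1qb 0.15.

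For Crybb1, too, no relation to the microglial markers was detected. Its r with the 8 markers had a median of -0.26 and ran from -0.58 with P2ry12 (rho = -0.55, exact permutation p = 0.090, adjusted p = 0.18) to 0.34 with Itgam (rho = 0.55, exact permutation p = 0.40, adjusted p = 0.57). With C1qb it was -0.35 and with Cd68 0.0033. None of the 8 pairs had an unadjusted p under 0.05 (exact permutation), and the lowest adjusted p was 0.18. Crybb1 was negatively related to most of the array, with a median r of -0.23 over all tested probes, and the r with the markers is read against that background. The r with Cx3cr1 was above that of 55.4%, the r with C1qb above 34.4% and the r with P2ry12, the lowest, above 9.91% of all probes.

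Quantile normalization moved the median r of Crybb1 with all probes to -0.018 and with the 8 markers to 0.11. Of the 8, 6 were then positive, Cx3cr1 changing from -0.19 to 0.35 and Cd68 from 0.0033 to 0.42, while P2ry12 stayed negative at -0.38 (adjusted p = 0.56, exact permutation). Again 0 of the 8 had an unadjusted p under 0.05. At array-median scaling and among the 6 heroin rats alone, r was -0.87 with Csf1r (exact permutation p = 0.021) and -0.81 with P2ry12 (exact permutation p = 0.049), with adjusted exact permutation p-values of 0.19 and 0.29 over the 36 pairs. Leaving out heroin replicate 5, the heroin rat with the highest Crybb1 and the lowest Aif1, Csf1r, C1qb, Tyrobp and P2ry12, turned the 11-rat r with C1qb to 0.078 and with Tyrobp to 0.31.

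**Figure D3:**
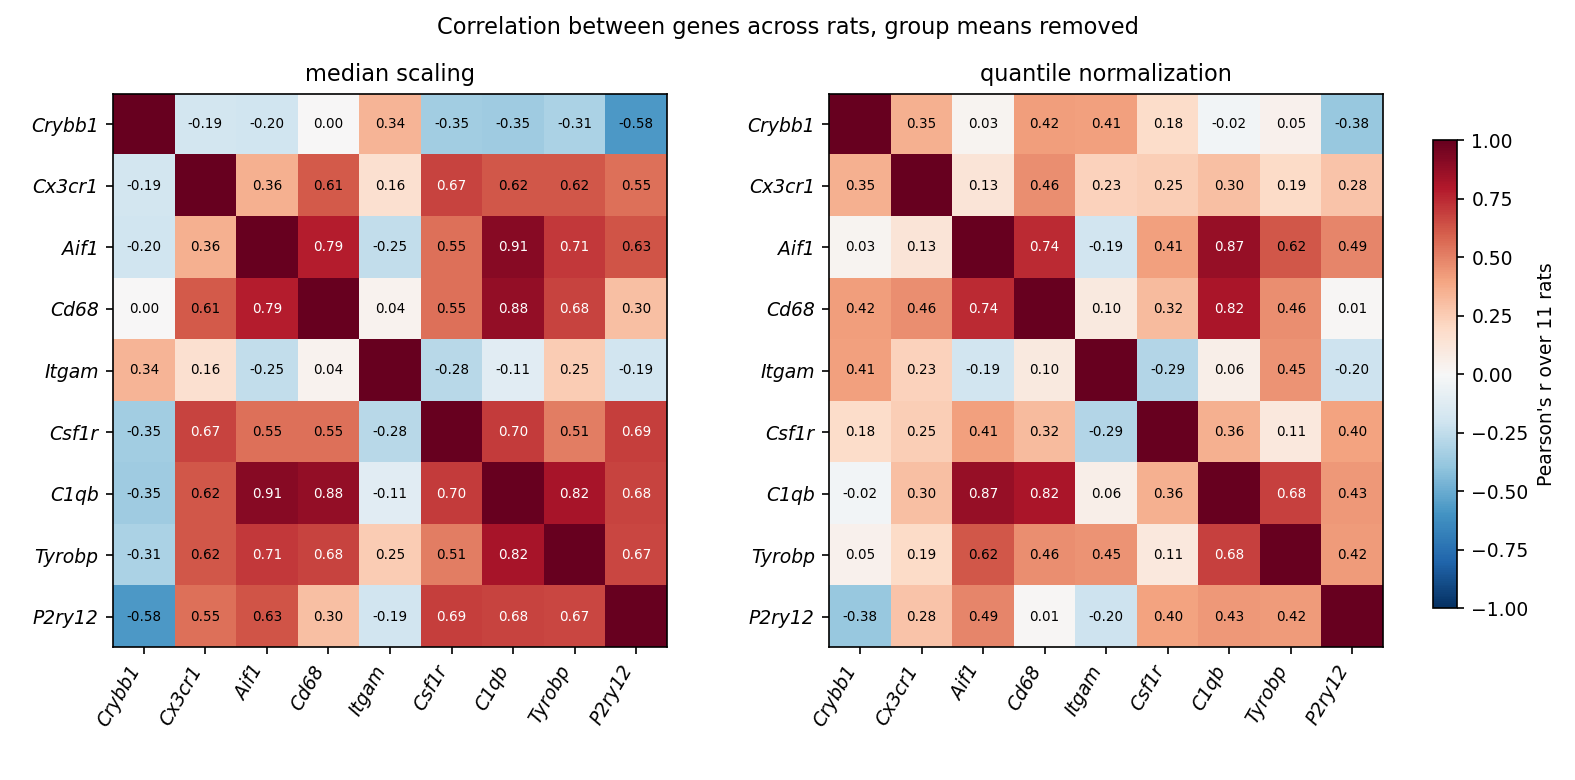
Pearson's r over 11 rats for each pair of the 9 genes after removal of group means, at array-median scaling (left) and after quantile normalization (right), with colour from -1 (blue) to 1 (red). The block of 7 markers without Itgam is positive in both panels (median 0.67 and 0.41), and the row of Crybb1 changes from mostly negative to mostly positive.

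**Figure D4:**
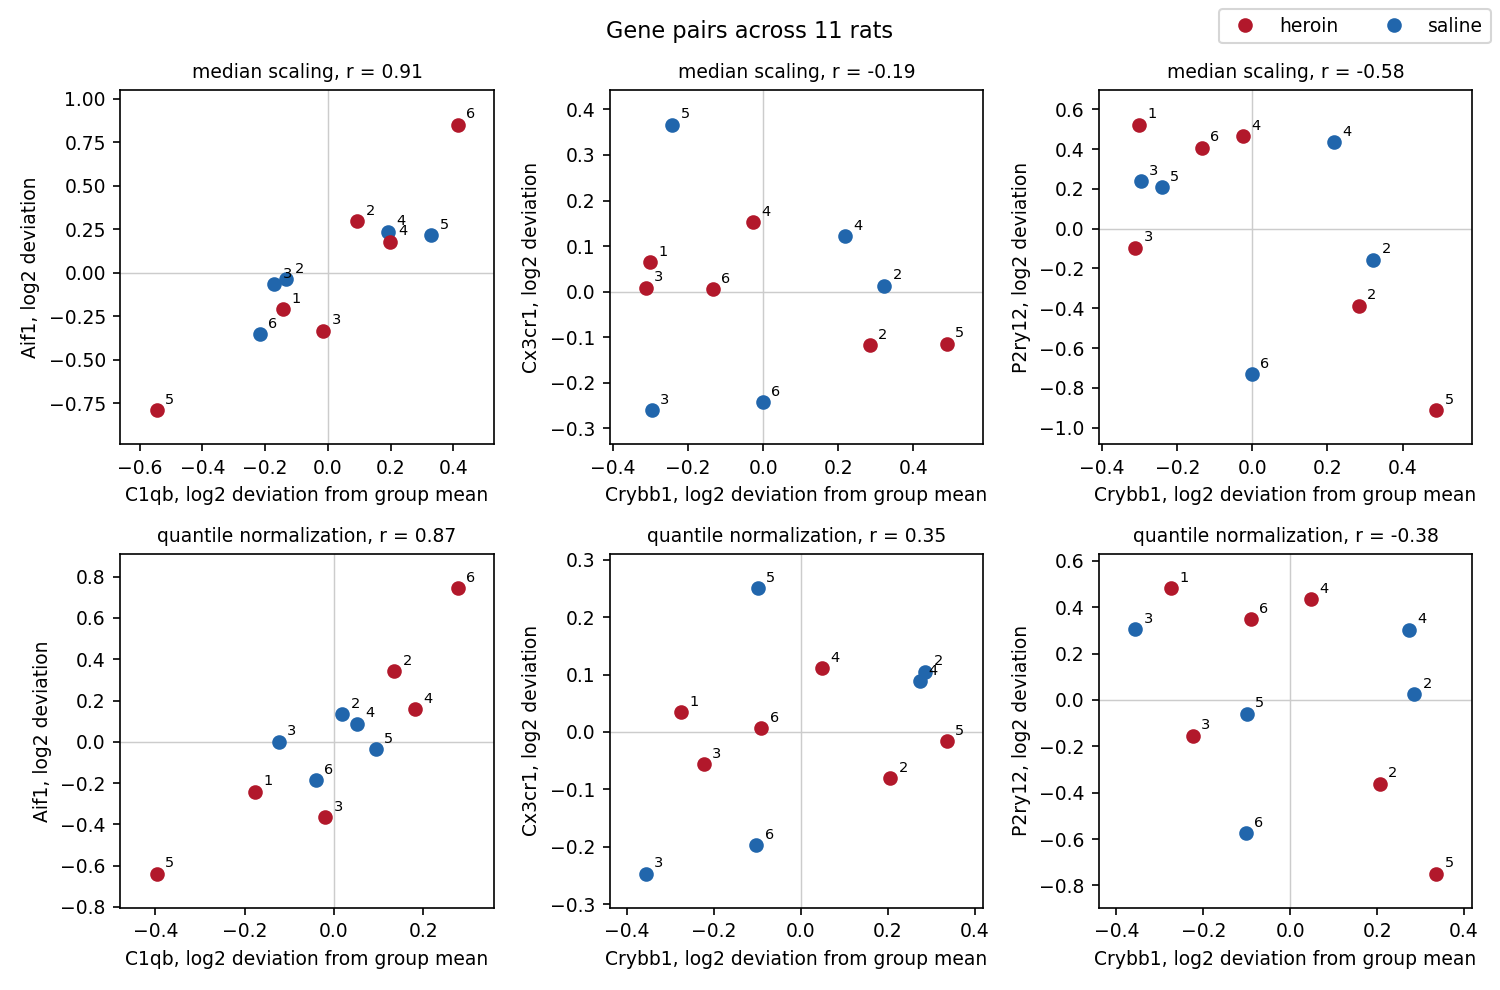
Log2 deviations from the group mean of each rat (points numbered by replicate, heroin red, saline blue) for C1qb and Aif1, Crybb1 and Cx3cr1, and Crybb1 and P2ry12, at array-median scaling (top) and after quantile normalization (bottom). C1qb and Aif1 keep one slope in both rows (r = 0.91 and 0.87), whereas Crybb1 and Cx3cr1 pass from -0.19 to 0.35.

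Features of the arrays moved with the same genes. The number of probes well above background on an array, again with group means removed, was negatively related to P2ry12 (r = -0.90, rho = -0.80), Aif1 (r = -0.85, rho = -0.83), C1qb (r = -0.83, rho = -0.77) and Tyrobp (r = -0.82, rho = -0.70), with adjusted exact permutation p-values of 0.012, 0.012, 0.012 and 0.034 over 18 relations. By rho the lowest adjusted exact permutation p was 0.056. For Crybb1 it was r = 0.36 (adjusted exact permutation p = 0.42). Without the 2 arrays farthest from the median (heroin replicate 5 and saline replicate 6) r was -0.67 for P2ry12, -0.75 for Aif1, -0.62 for C1qb and -0.54 for Tyrobp. The relations stayed negative after quantile normalization, with r = -0.87 for P2ry12, -0.76 for Aif1, -0.75 for C1qb and -0.64 for Tyrobp. With the log2 median signal of the array, Aif1 had the closest relation (r = -0.84, rho = -0.74, adjusted exact permutation p = 0.012 for r). The array with the lowest median signal, heroin replicate 6, was also the one with the highest Aif1 and C1qb. The part of these array features in the correlation between genes was not tested.

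The 5 named genes whose signals followed Crybb1 most closely, of 7363 probes with a RefSeq symbol, were Kiss1 (r = 0.83), Spint1 (0.79), St8sia6 (0.79), Iqub (0.79) and Gmppa (0.79). None is one of the markers. Kiss1 encodes the peptide kisspeptin and Spint1 a protease inhibitor of epithelia, and after quantile normalization r was 0.75 and 0.72.

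Known partners of the members gave a check on how far genes that work together were measured together. The 3 chains of C1q are encoded by neighbouring genes and assemble into 1 protein. C1qb and C1qc correlated with r = 0.94 (rho = 0.95, adjusted exact permutation p = 0.0012 over 7 partner pairs), C1qa and C1qb with r = 0.86 (rho = 0.85, adjusted p = 0.011, exact permutation) and C1qa and C1qc with r = 0.79 (rho = 0.77, adjusted p = 0.020, exact permutation). After quantile normalization they were 0.89, 0.77 and 0.56. The other 4 partner pairs had lower r, and none had an adjusted exact permutation p under 0.05: Trem2 with Tyrobp 0.51, Csf1 with Csf1r 0.46, Cx3cl1 with Cx3cr1 0.37, and Itgb2, the beta chain of complement receptor 3, with Itgam 0.37. The 2 ligand pairs turned negative after quantile normalization, at -0.13 for Csf1 and Csf1r and -0.11 for Cx3cl1 and Cx3cr1.

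Marker lists of other cell types were set beside the 7 markers in the same way. The 10 tested oligodendrocyte genes had positive r in 45 of 45 pairs (median 0.88, and 0.87 after quantile normalization), and the 10 astrocyte genes in 39 of 45 (median 0.49 and 0.28). The 7 markers had a median of 0.67, all 8 markers with Itgam one of 0.62 (24 of 28 pairs positive), and the 12 further homeostatic microglial genes with values in all rats one of 0.30 (53 of 66). No difference between the lists was tested.

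The other genes of microglial pathways were taken from lists. Of the 20 further homeostatic microglial genes, 13 were tested, 0 were past both limits upward and 1 downward, against 0.927% of all probes downward. Their median log2 difference was 0.11, against 0.18 for all probes. The one was Ptprc, the leukocyte phosphatase CD45. Its signals were 0.951, 0.858, 0.992, 0.707 and 0.861 array medians in saline replicates 2 to 6 and 0.680, 0.678, 0.524, 0.632, 0.803 and 0.430 in heroin replicates 1 to 6. All heroin rats but replicate 5 were below all saline rats. The log2 difference of -0.50 (SE 0.16; limma unadjusted p = 0.0072, adjusted p = 0.26) was -0.44 with quantile normalization and -0.18 with normexp, both no longer past the limits, and it was past them in 16 of 23 alternatives. Its r over the 11 rats was 0.66 with Crybb1 and -0.69 with C1qb, given as descriptions, while 11 genes of its list had a positive r with C1qb.

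Trem2, a receptor for lipids that signals through Tyrobp, had a log2 difference of 0.29 (SE 0.22; limma adjusted p = 0.41), Tmem119 one of 0.19 (SE 0.23; limma adjusted p = 0.59) and P2ry13 one of 0.10 (SE 0.20; limma adjusted p = 0.75). None of these surface markers of microglia passed the limits. Signals were low for Tmem119 (mean 0.801 array medians in heroin and 0.733 in saline rats) and P2ry13 (0.510 and 0.461).

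Among the complement and Fc receptor genes 0 of the 14 tested were past both limits (median 0.056). C1qa (0.18, limma adjusted p = 0.50) and C1qc (0.19, limma adjusted p = 0.54) gave nearly the value of C1qb. Of the Tyrobp and ITAM signalling genes 0 of 9 passed (median 0.19), and of the lysosome genes 0 of 14 (median 0.19), Ctss, a cathepsin of phagocytes, being 0.32 (SE 0.18; limma adjusted p = 0.31). Of the transcription factors of microglia 0 of 8 passed (median 0.028). Spi1, which encodes PU.1, was 1.53 ± 0.390 array medians in heroin (SD, n = 6) and 1.96 ± 0.384 in saline rats (SD, n = 5), a log2 difference of -0.38 (SE 0.20; limma adjusted p = 0.28). Its r with C1qb over the 11 rats was -0.75, given as a description, while 6 of the 8 transcription factors had a positive r with C1qb.

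The list of ligands had the largest list median, 0.30, with 0 of 5 past both limits. Beside Csf1 and Cx3cl1 it held Cd200, Cd47 and Tgfb1, whose receptors are not members. The median was the value of Cd47, so it does not describe the ligands of the member receptors alone. Csf1, the growth factor that Csf1r binds, had signals of 5.26, 5.45, 8.28, 11.2 and 8.85 array medians in saline replicates 2 to 6 and of 11.7, 9.56, 14.4, 12.9, 7.16 and 11.6 in heroin replicates 1 to 6. Of the heroin rats, 4 exceeded all saline rats, and replicate 5 was again the lowest of its group. The log2 difference was 0.55 (SE 0.22; limma unadjusted p = 0.024, adjusted p = 0.26), and 0.32 after quantile normalization. Cx3cl1, the neuronal ligand of Cx3cr1, differed by 0.19 (SE 0.12; limma adjusted p = 0.35). Il34 and Irf8 had no probe with a matching name.

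The list of activated or disease-associated microglial genes held the only members of any list that were past both limits upward, 2 of 15 tested against 1.79% of all probes, while the median of the list was 0.082. Both encode chemokines. Ccl3, a chemokine made by activated macrophages and microglia, had signals of 0.567, 0.973, 1.67, 1.46 and 1.22 array medians in saline replicates 2 to 6 and of 1.73, 1.99, 2.65, 2.83, 1.97 and 1.92 in heroin replicates 1 to 6. The lowest heroin rat exceeded the highest saline rat, a separation found in either direction for 1.78% of all probes. The log2 difference was 0.96 (SE 0.24; limma unadjusted p = 0.0011, adjusted p = 0.26), 0.93 after quantile normalization, and it was positive within 5 of 5 scans.

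Ccl2, the chemokine that attracts monocytes, had signals of 0.365, 0.301, 0.667, 0.727 and 1.05 array medians in saline replicates 2 to 6 and of 1.104, 1.19, 0.876, 1.54, 0.816 and 1.92 in heroin replicates 1 to 6. Of the heroin rats, 4 exceeded all saline rats. The log2 difference was 1.08 (SE 0.30; limma unadjusted p = 0.0030, adjusted p = 0.26), 1.13 after quantile normalization, and it was positive within 5 of 5 scans. With normexp the difference of Ccl2 was 0.42 and no longer past the limits, and that of Ccl3 was 0.55. Ccl3 was past both limits in 22 of 23 alternatives and Ccl2 in 21 of 23, neither under the methods' t-test with unequal variances. Other cells of the cortex can make both chemokines, and which cells made them was not tested. The r of these genes with C1qb was 0.40 for Ccl3 and 0.55 for Ccl2, and with Crybb1 -0.24 and -0.10, given as descriptions.

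In the crystallin family 0 of 6 tested genes were past both limits (median 0.28). Cryba4, the neighbour of Crybb1 in the genome and another beta crystallin, was not well above background on any array, and its signals overlapped between the groups, 0.0721 to 0.183 array medians in saline and 0.0667 to 0.172 in heroin rats. Cryab, a small heat shock protein of glia, had a log2 difference of 0.18 (SE 0.26; limma adjusted p = 0.66), and Crym, a thyroid hormone binding protein of neurons that is no lens beta crystallin, 0.42 (SE 0.16; limma unadjusted p = 0.017, adjusted p = 0.26), short of 1.4-fold. No other crystallin tested was past the limits in the direction of Crybb1, and 5 of the 6 tested were higher in heroin. The beta crystallin Crybb2 was well above background on 10 arrays and was not tested. Its signal was 0.426 ± 0.090 array medians in heroin (SD, n = 6) and 0.668 ± 0.221 in saline rats (SD, n = 5). Whether the lower signal was particular to Crybb1 was not tested. Over 23 alternatives the count of crystallins of this list past both limits ran from 0 to 2.

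Cells that share genes with microglia were checked with lists of their own. Border-associated macrophages, which sit along vessels and meninges, had 1 of 7 tested genes past both limits, downward, against 0.927% of all probes, with a list median of 0.030. The gene was Ms4a7, whose signals were 1.48, 1.12, 0.933, 1.21 and 1.31 array medians in saline replicates 2 to 6 and 0.762, 0.716, 0.774, 0.811, 0.953 and 0.902 in heroin replicates 1 to 6. Heroin replicate 5 lay just above saline replicate 4 and the other 5 heroin rats lay below all saline rats. The log2 difference was -0.55 (SE 0.14; limma unadjusted p = 0.0012, adjusted p = 0.26) and -0.57 after quantile normalization. It was -0.29 with normexp and no longer past the limits, as also without saline replicate 2. Of the other genes of this list, Mrc1, the mannose receptor, was 0.078 (SE 0.19; limma adjusted p = 0.80) and Cd74, the invariant chain of MHC class II, which other antigen-presenting cells also make, 0.021 (SE 0.34; limma adjusted p = 0.97). Cd163 was well above background on 7 of 11 arrays and was not tested. With no detection filter its log2 difference was -0.98 and past both limits, as were 1085 of all 40980 probes in that direction. Detection asked for in 1 group admits a probe through the group where it is high, so that setting is not read for Cd163. Its signal was 0.514 ± 0.177 in saline (SD, n = 5) and 0.275 ± 0.124 in heroin rats (SD, n = 6), and 4 heroin rats lay below all saline rats.

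Of the blood leukocyte genes 5 could be tested and 0 passed both limits (median 0.032), with a summed signal of 9.73 to 12.2 array medians in saline and 8.82 to 11.9 in heroin rats. Of the red blood cell genes 0 of 3 passed (median -0.048). Astrocyte (0 of 10, median 0.19), oligodendrocyte (0 of 10, median 0.078), endothelial and pericyte (0 of 10, median 0.033) and neuronal genes (0 of 10, median 0.23) also had no member past both limits. The summed signal of the 7 tested microglial markers was 142 to 210 array medians in saline and 127 to 269 in heroin rats, so the heroin range contained the saline range.

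**Figure D5:**
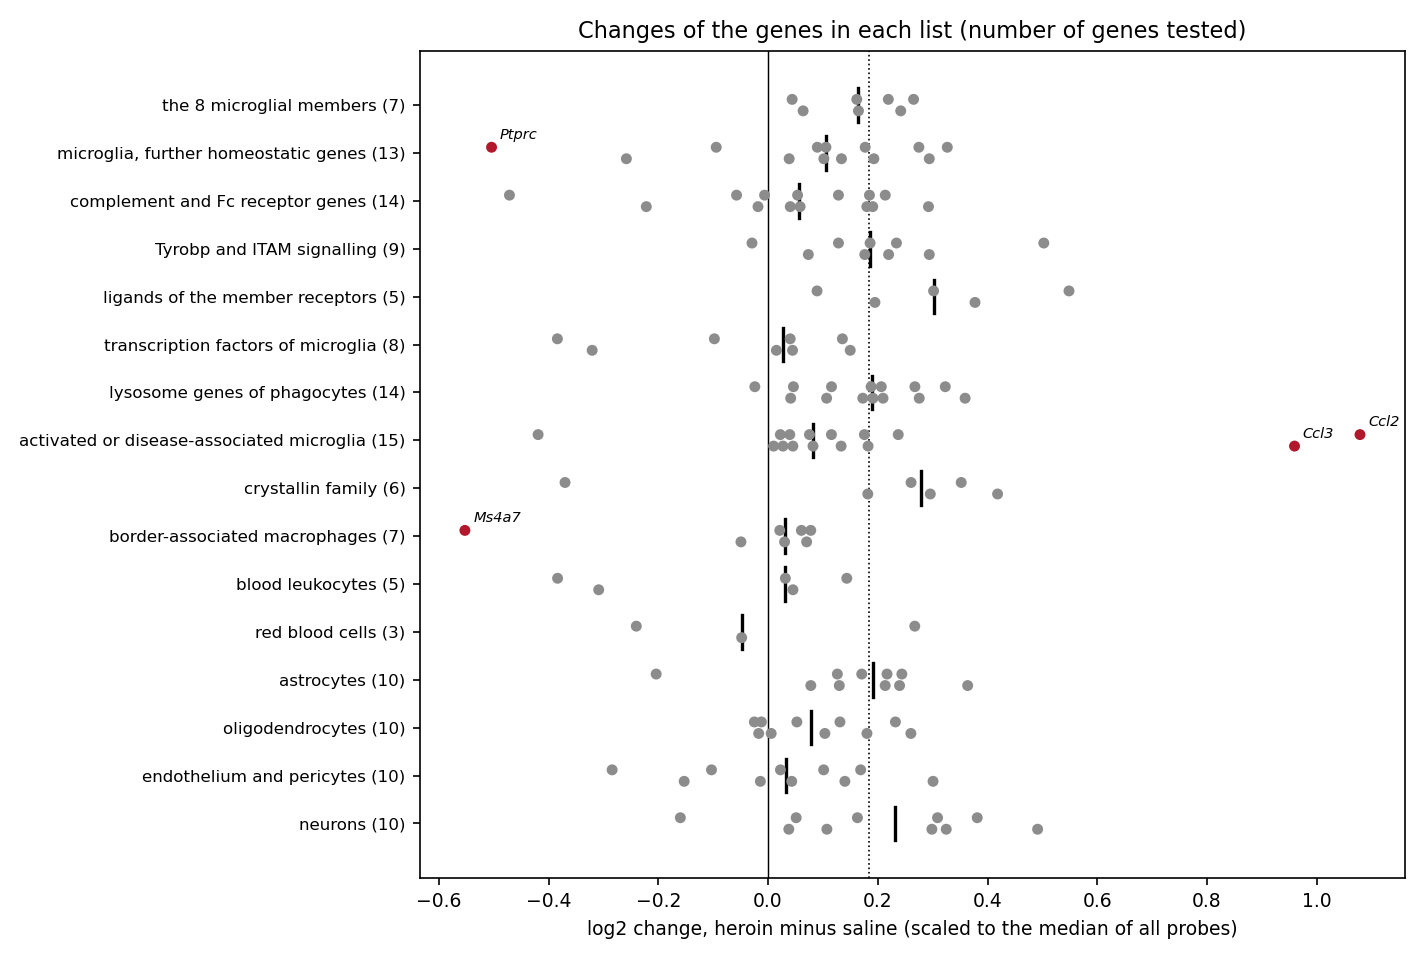
Log2 difference between heroin and saline rats (horizontal axis, array-median scaling) for each tested gene of 16 lists, with the number tested in brackets. Black bars are list medians, the dotted line is the median of all tested probes (0.18), and red points are genes past both limits. Ccl2 (1.08) and Ccl3 (0.96) lie to the right, Ptprc (-0.50) and Ms4a7 (-0.55) to the left, and the 7 markers lie between 0.044 and 0.27.

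Across all probes, 0 of 25555 had an adjusted p under 0.05 with limma, and 4723 had an unadjusted p under 0.05. The 694 probes past both limits divided into 457 higher and 237 lower in heroin at array-median scaling, 33 higher and 746 lower with scaling to the 75th percentile, and 218 higher and 239 lower after quantile normalization, so the direction of small differences such as those of the markers depends on the scaling.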

How the data were processed

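Per the labels and the study's methods, the authors amplified RNA of each rat into Cy3-labelled cRNA, hybridised it to an Agilent 4 x 44 rat array and deposited, per the file headers, a signal intensity for each spot that Feature Extraction 9.5.1.1 had corrected for spatial trends in the background but not scaled between arrays. The authors also deposited relative values, a ratio per probe and rat made in GeneSpring, used here as an alternative. Array design positions are in build rn3.

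From the deposited intensities, marked spots were left out, values under 5 were set to 5, log2 was taken, spots of a probe were averaged and the 50th percentile over the 41012 non-control probes was subtracted. Of these, 25587 probes were well above background on all 11 arrays. 32 with under 2 usable arrays in a group were dropped, and 25555 were tested. limma 3.58.1 in R 4.3.3 (lmFit, eBayes, two-sided, Benjamini-Hochberg over all tested probes) compared heroin with saline rats, and the limits of an unadjusted p under 0.02 and 1.4-fold are those of the study's methods. Correlations used exact permutations within groups. Of the probes, 10735 matched a RefSeq symbol. The number of arrays limits the precision. The methods name a further saline array, which was not analysed here.

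The members and lists were chosen with earlier results of these data known. A gene with several probes is represented by the probe in the study's list (Crybb1) or else by its brightest. All probes of the 9 genes were named, as were Csf1, Il34, Cx3cl1, C1qa, C1qc, Trem2, Tmem119, P2ry13, Spi1, Irf8, Ctss, Cryba4, Cryab, Crym, Cd163, Mrc1, Cd74, any list gene past both limits, and the 5 named probes closest to Crybb1. A further gene under this rule is not reported here. The partner pairs, Crybb2, Cd200, Cd47 and Tgfb1 were added after the values were seen. Alternatives were other scalings, background corrections, filters, tests and weights, the deposited ratio values, a block, averaged probes, leaving out each rat and, for correlations, other ways of handling the groups. The fits were tested on simulated data.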

Additional observations from a re-analysis of the deposited data

How the results depend on the processing

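The Crybb1 difference ran from -0.78 to -0.17 on the log2 scale over 23 alternatives. The gene was chosen on this difference and the alternatives refit the same arrays, so the range is a description only. At array-median scaling the 1 member probe past both limits was that of Crybb1. The -0.17 came with the normexp background correction, with which 0 member probes were past both limits, as with quantile normalization. Without any 1 rat the count was 0 to 1, and it was 0 without saline replicate 2. For the markers, Cx3cr1 kept its sign in all 23. With scaling to the 75th percentile, quantile normalization and scaling to the detected probes, the difference was -0.056, -0.091 and -0.029 for Aif1, -0.15, -0.079 and -0.13 for Cd68, -0.053, -0.091 and -0.026 for C1qb and -0.17, -0.21 and -0.15 for Tyrobp, while P2ry12 was -0.021 with quantile normalization. Tyrobp was -0.0062 with normexp, and with all probes of a gene averaged Csf1r was -0.012 and Tyrobp -0.11. These averages take in the second Csf1r probe, which was not tested, and the Tyrobp probe on the opposite strand. Leaving out 1 rat at a time gave -0.0085 to 0.32 for Aif1, -0.027 to 0.17 for Cd68 and -0.0048 to 0.15 for Tyrobp. The cause was not tested.

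The correlation of Crybb1 with Cx3cr1 was 0.24, 0.35 and 0.16 under those 3 scalings, and with Csf1r 0.050 (75th percentile) and 0.18 (quantile). With Aif1 it was 0.031 with quantile normalization, 0.27 with normexp and 0.055 by Spearman's rho. With Tyrobp it was 0.045 with quantile normalization and 0.17 with probes averaged, the probe on the opposite strand included. With Cd68 it was -0.042 in heroin rats alone and -0.079 with group means kept. With group means kept, which lets the group difference of Crybb1 enter, r with Csf1r was -0.59 and rho -0.69 (permutation p = 0.023, unadjusted). Leaving out 1 rat gave -0.46 to 0.040 for Cx3cr1, -0.34 to 0.28 for Aif1, -0.19 to 0.33 for Cd68, -0.48 to 0.078 for C1qb and -0.47 to 0.31 for Tyrobp. The adjusted p of Aif1 with C1qb was 0.059, 0.20 and 0.069, and of Cd68 with C1qb 0.11, 0.14 and 0.089, under the 3 scalings (exact permutations). The 3 marker pairs at an adjusted p under 0.05 became 0 under these scalings, in heroin rats alone and with the block, 5 with group means kept and 2 to 5 without 1 rat (5 without heroin replicate 3).

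The numbers 2 to 6 occur in both groups, and each is 1 scan. The labels do not say whether rats of the same number were a yoked pair. Over all tested probes, the deviations of same-numbered rats had r = 0.38, -0.13, 0.35, 0.017 and -0.24, and 1 of 5 correlated best with its own number. For numbers 2 and 4 the mean r with the other saline rats was -0.085 and -0.10, so the result was mixed. With the number as a replicate block, 1 member probe was past both limits, Crybb1 differed by -0.50, and over the 5 differences the correlation of Crybb1 was negative with all 8 markers: -0.94 with Tyrobp, -0.87 with C1qb, -0.85 with Cd68, -0.81 with Cx3cr1, -0.74 with P2ry12, -0.72 with Aif1, -0.51 with Csf1r and -0.12 with Itgam (lowest adjusted p = 0.28, exact permutation). The block moved the count over all probes from 625 (the same 10 rats without it) to 790.

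The count of 694 probes past both limits was 126 with normexp, 457 with quantile normalization, 308 with the methods' t-test, 1067 with detection in 1 group, 1560 with no detection filter and 2380 with array weights, and 345 to 2356 without 1 rat (lowest without saline replicate 2, highest without saline replicate 5). Array weights also gave 7862 probes an adjusted p under 0.05, against 1 without heroin replicate 6 and 0 in every other setting, with a weight of 0.26 for heroin replicate 6 and 3.45 for heroin replicate 1. Signal over background limits the values of Crybb1, Crybb2, Ptprc, Tmem119, P2ry13, Cd163 and, in saline rats, Ccl2.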
